A study of Homo sapiens with 15 samples.

Results

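The BEX genes (brain expressed X-linked) are a small family of genes on the X chromosome, and all 5 of its members, BEX1, BEX2, BEX3, BEX4 and BEX5, were followed through 5 sublines of VCaP, an established prostate cancer (PC) cell line. The 5 were matched by symbol among 58381 counted genes, and 4 of them passed the filter on low counts. The family was chosen by the BEX1 counts, because BEX1 was nearly silent in some sublines and well expressed in others, so the levels of BEX1 are a description without a test. The levels of BEX2, BEX3, BEX4 and BEX5 had no part in that choice, and the 3 of these that passed the filter were tested. Since the sublines form a line of descent, each comparison asks what differed after 1 further step of treatment.

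Bulk RNA-seq was available for 15 libraries, 3 biological replicates of each subline. VCaP-T had been kept at 10 nM testosterone for 7 months, and VCaP-CT was made from it in 10 months at 0.1 nM testosterone, a model of androgen deprivation therapy (ADT). VCaP-CT-ER was raised from VCaP-CT under 10 µM enzalutamide (ENZ), an antiandrogen. Bicalutamide, an older antiandrogen, was used on VCaP-CT to obtain VCaP-CT-BR. VCaP-CT-BR-ER followed when bicalutamide-insensitive cells were carried on under ENZ. All 5 sublines share the VCaP origin and the 7 months at 10 nM testosterone. The characteristics in the labels give 10 nM testosterone also for the later 10 months, at odds with the protocol, and for VCaP-CT-BR they mention ENZ after bicalutamide. The protocol writes VCaP-CT-ET where the labels write VCaP-CT-ER. Each subline was described as a single derivation, so treatment, time in culture and derivation cannot be told apart.

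Libraries held 33665716 to 46935279 counted fragments, and 3 counts, taken as the floor of detection, equalled 0.0621 to 0.0906 CPM, the count scaled to a common library size. All 11 markers of luminal prostate and VCaP cells reached 1 CPM in every subline. Of 4 leukocyte markers, the summed level was at most 0.156 CPM in any library. Floors and the exact intervals for ratios of summed counts reflect counting error alone, without the spread between libraries. The intervals of the edgeR fits include that spread. No molecular identifiers were described, so copies of 1 molecule could be counted more than once.

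BEX proteins are small proteins with little fixed structure that act through partners. BEX1 and BEX3 are known to bind NGFR, the low-affinity neurotrophin receptor, and BEX3 was named for the cell death it promotes through that receptor. BEX genes are best known from neurons, where they take part in cell cycle exit and differentiation, and several members are lost or gained in tumours. They belong to 1 superfamily with the TCEAL genes, which lie beside them on the X chromosome.

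On GRCh38, in the counting annotation, BEX1 (ENSG00000133169) lies at chrX:103062651-103064240 on the minus strand, BEX2 (ENSG00000133134) at chrX:103309346-103311046 on the minus strand, BEX4 (ENSG00000102409) at chrX:103215092-103217246 on the plus strand and BEX3 (ENSG00000166681) at chrX:103376340-103378077 on the plus strand. These 4 genes fill 315.4 kb. BEX5 (ENSG00000184515) stands apart at chrX:102153708-102156057 on the minus strand, 906.6 kb from BEX1. None of the 5 overlaps another annotated gene, and in each the coding sequence lies in 1 exon. The coding sequences of BEX1 and BEX2 were 94.7% identical over 375 aligned bases, against 79.8% for BEX3 and BEX5, 78.5% for BEX3 and BEX4, and 69.2% for BEX1 and BEX4. The likeness of BEX1 and BEX2 bears on the counts, since a read inside an identical stretch cannot be placed. Their longest identical exonic stretch had 75 bases, in the coding exon of each gene (BEX1, chrX:103062963-103063037, and BEX2, chrX:103309656-103309730, both on the minus strand). It is printed in the sense of the genes.
BEX1 and BEX2: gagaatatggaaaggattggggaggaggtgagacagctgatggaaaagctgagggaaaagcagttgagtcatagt
Of the 717 windows of 50 bases in BEX1 exons, 26 were found in BEX2, and of the 576 windows of 100 bases none was. BEX3 and BEX4 shared no window of 50 bases with another member.

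The letters before the starts were aligned for every pair of members. BEX2 with BEX4, which moved in different ways below, and BEX1 with BEX3 had the highest identity and are printed. The block of BEX1 and BEX3 was the shortest of any pair. BEX1 and BEX2, the pair most alike in coding sequence, were identical at 66 of 85 aligned bases, or 77.6%. RefSeq promoter windows (GRCh38.p14, 250 bases before to 50 after each start) were found for all 5 genes. In the parts outside exons, BEX2 (chrX:103311047-103311240, minus strand) and BEX4 (chrX:103214859-103215051, plus strand) were identical at 165 of 189 aligned bases, or 87.3%. Capitals mark the bases identical in the partner.
BEX2: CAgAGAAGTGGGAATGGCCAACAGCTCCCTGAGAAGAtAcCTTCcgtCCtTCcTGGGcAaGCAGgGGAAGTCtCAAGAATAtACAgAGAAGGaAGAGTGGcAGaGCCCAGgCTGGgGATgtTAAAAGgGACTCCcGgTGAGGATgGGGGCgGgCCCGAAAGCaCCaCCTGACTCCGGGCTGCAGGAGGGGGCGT
BEX4: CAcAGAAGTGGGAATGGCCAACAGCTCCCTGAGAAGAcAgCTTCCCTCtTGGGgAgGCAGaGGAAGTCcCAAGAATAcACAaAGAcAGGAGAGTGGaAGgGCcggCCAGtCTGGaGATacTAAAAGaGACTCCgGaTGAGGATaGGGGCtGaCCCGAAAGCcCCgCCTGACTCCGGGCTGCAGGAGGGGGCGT
BEX1 and BEX3, the member that varied most between sublines and the most abundant one, shared a shorter block (BEX1, chrX:103064378-103064421, minus strand, and BEX3, chrX:103376279-103376322, plus strand), identical at 41 of 44 bases, or 93.2%.
BEX1: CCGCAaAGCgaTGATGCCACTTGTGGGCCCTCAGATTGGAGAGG
BEX3: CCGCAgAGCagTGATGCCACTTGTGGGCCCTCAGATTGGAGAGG
The BEX1 window held 25 CpG, the BEX2 window 17, the BEX3 windows 7, 23 and 32, the BEX4 windows 16 and 17 and the BEX5 windows 13 and 14, against a median of 14 over all windows. The letters TATAAA were found on neither strand in a window of any member, whereas 11.5% of all 35116 windows hold them. The E-box CANNTG was found in 7 of the 9 windows of the family and in 68.7% of all windows. Some windows of BEX3, BEX4 and BEX5 overlap others of the same gene, so a site can be counted more than once. Its form CACGTG, looked at after the windows had been read, was found in BEX1, BEX2, both BEX4 windows and 1 of 3 BEX3 windows, and in 7.26% of all windows. These are matches of letters, and no binding was measured.

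BEX1 was expressed in VCaP-T and VCaP-CT-ER and almost absent from the other sublines. The 3 VCaP-T libraries held 360, 313 and 343 BEX1 counts, and the 3 VCaP-CT libraries held 1 count each. In VCaP-CT-ER the counts were 1018, 1013 and 875. The VCaP-CT-BR libraries held 0, 0 and 1 counts, and the VCaP-CT-BR-ER libraries 5, 3 and 4. The lowest VCaP-T library thus lay far above all libraries of VCaP-CT and of the 2 bicalutamide sublines, and the VCaP-CT-ER libraries lay above those of VCaP-T. In bulk samples, fewer cells with BEX1 RNA and less BEX1 RNA per cell cannot be told apart.

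After scaling for library size and composition (TMM), the mean level of BEX1 was 8.83 ± 0.958 CPM in VCaP-T, with 0.0289 ± 0.00117 CPM measured for VCaP-CT and 21.3 ± 0.356 CPM for VCaP-CT-ER (SD, n = 3). VCaP-CT-BR had 0.00826 ± 0.0143 CPM, while VCaP-CT-BR-ER had 0.103 ± 0.0202 CPM (SD, n = 3). Both VCaP-CT and its bicalutamide derivative lay under the floor of 3 counts, so how low they were was not detectable at this depth. With counts summed over the 3 libraries, the VCaP-T level was 305 times that of VCaP-CT, with an exact 95% counting interval of 104 to 1481 that rests on 3 counts in VCaP-CT and is no test. The VCaP-CT-ER level was 739 times that of VCaP-CT (252 to 3583) and 2.42 times that of VCaP-T (2.25 to 2.60). These too are counting intervals and leave out the spread between libraries, which ran from 8.07 to 9.91 CPM in VCaP-T.

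The ENZ step that gave VCaP-CT-BR-ER ended at a far lower BEX1 level than the ENZ step from VCaP-CT. BEX1 in VCaP-CT-BR-ER was 12.1 times that of VCaP-CT-BR, with a counting interval of 1.79 to 517 that rests on a single count in VCaP-CT-BR. It was 3.58 times that of VCaP-CT, with a counting interval of 0.966 to 19.8. The level of VCaP-CT-ER was 206 times that of VCaP-CT-BR-ER (118 to 400).

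**Figure D1:**
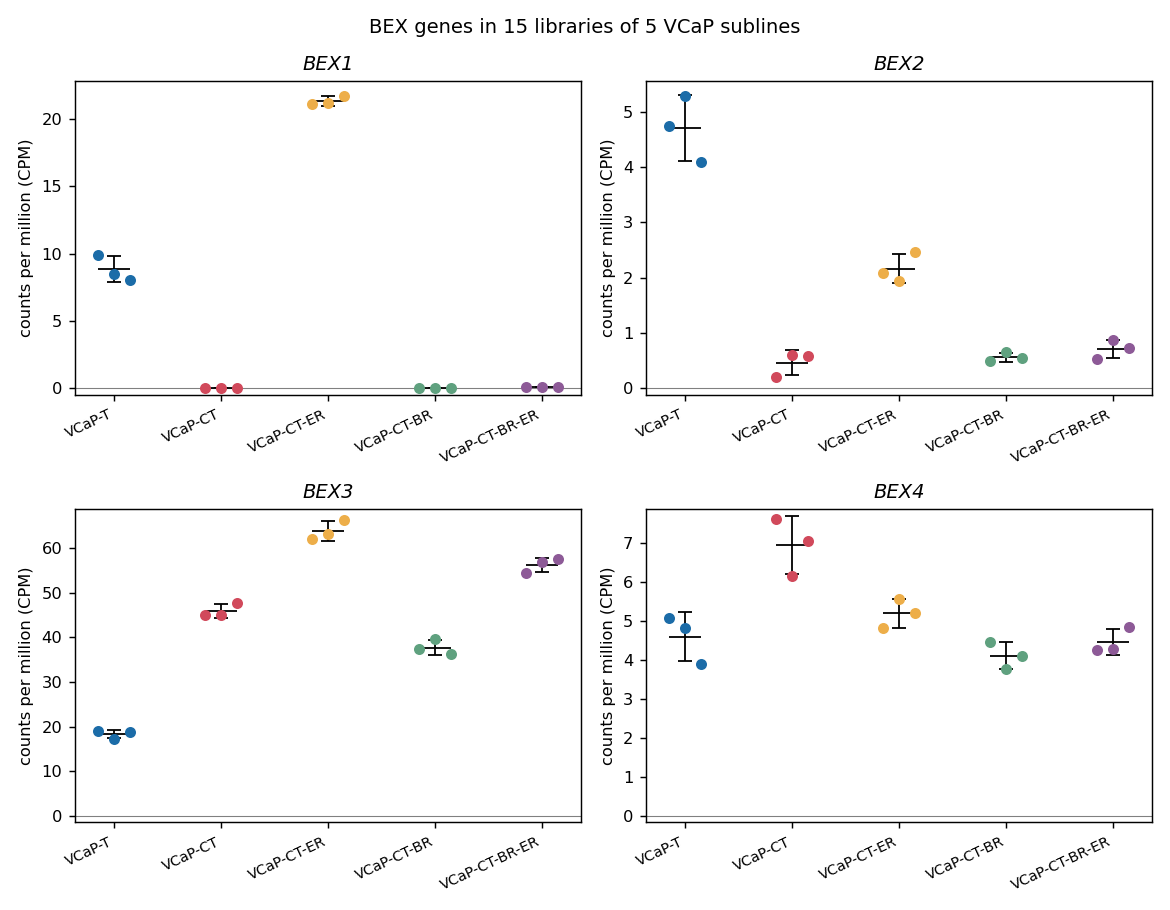
Levels of BEX1, BEX2, BEX3 and BEX4 in CPM (vertical axes from 0) in each of 15 libraries (points), with the mean and SD of the 3 libraries of each subline (lines). BEX1 lies between 8.07 and 21.7 CPM in the libraries of VCaP-T and VCaP-CT-ER and at most at 0.121 CPM elsewhere, whereas BEX3 and BEX4 are present in every library.

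BEX3, the NGFR partner also known as NGFRAP1 or NADE, was the most abundant member in each subline and rose at ADT. The VCaP-T libraries held 691, 634 and 802 counts, those of VCaP-CT 1487, 1582 and 1704, and those of VCaP-CT-ER 2998, 3017 and 2670. Libraries of VCaP-CT-BR held 1438, 1512 and 1463 counts, and their ENZ-resistant offspring VCaP-CT-BR-ER 2240, 2095 and 2192. On the CPM scale no library of VCaP-T reached the level of any library of another subline, and the 2 ENZ-resistant sublines did not overlap with their parents. The mean level was 18.4 ± 0.980 CPM in VCaP-T and rose to 45.9 ± 1.53 CPM in VCaP-CT (SD, n = 3). VCaP-CT-ER reached 63.8 ± 2.22 CPM, and VCaP-CT-BR-ER reached 56.2 ± 1.6 CPM from 37.7 ± 1.69 CPM in its parent VCaP-CT-BR (SD, n = 3).

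In BEX3 the step to VCaP-CT was a 2.49-fold rise (log2 fold change 1.32 ± 0.06 SE, edgeR quasi-likelihood test, adjusted p = 3.0e-14). At the ENZ step to VCaP-CT-ER it rose 1.39-fold (log2 0.48 ± 0.05, edgeR adjusted p = 1.7e-07), and at the second ENZ step, to VCaP-CT-BR-ER, 1.49-fold (log2 0.58 ± 0.06, edgeR adjusted p = 3.1e-08). Of the 3 tested members, BEX3 alone passed the test at both ENZ steps. The steps differed by 0.10 on the log2 scale, with an interval of -0.06 to 0.26 (edgeR adjusted p = 0.30), so a difference between them was not shown, and differences of up to 0.26 lay within the interval. Under bicalutamide BEX3 fell 1.22-fold from its level in VCaP-CT (log2 -0.28 ± 0.06, edgeR adjusted p = 0.00022).

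BEX2, whose coding sequence is nearly that of BEX1 and which is known as a partner of the transcription regulator LMO2, fell at ADT. The VCaP-T libraries held 172, 194 and 174 counts, those of VCaP-CT 7, 21 and 21, and those of VCaP-CT-ER 101, 93 and 99. Libraries of VCaP-CT-BR held 19, 25 and 22 counts, and the 3 of VCaP-CT-BR-ER 22, 32 and 28. VCaP-T was highest, VCaP-CT-ER intermediate without overlap on either side, and the libraries of the other 3 sublines overlapped. The mean level was 4.70 ± 0.593 CPM in VCaP-T, with 0.465 ± 0.220 CPM measured for VCaP-CT and 2.16 ± 0.266 CPM for VCaP-CT-ER (SD, n = 3). VCaP-CT-BR had 0.564 ± 0.0824 CPM, while VCaP-CT-BR-ER had 0.712 ± 0.168 CPM (SD, n = 3). BEX2 thus stayed above the floor in each library, unlike BEX1.

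For BEX2 the step to VCaP-CT was a 9.92-fold fall (log2 -3.31 ± 0.22, edgeR adjusted p = 3.6e-11). At the ENZ step to VCaP-CT-ER it rose 4.56-fold (log2 2.19 ± 0.24, edgeR adjusted p = 1.2e-07), to 2.18-fold below its level in VCaP-T (log2 -1.12 ± 0.16, edgeR adjusted p = 3.6e-06). At the second ENZ step the log2 difference was 0.33, with an interval of -0.27 to 0.92 (edgeR adjusted p = 0.38). The ENZ steps themselves differed, by -1.86 ± 0.39 on the log2 scale (edgeR adjusted p = 0.00045). Under bicalutamide the log2 difference of BEX2 was 0.26 (-0.40 to 0.92, edgeR adjusted p = 0.52), and without VCaP-CT replicate 1, the library with 7 counts, it was -0.059.

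BEX4, described as a protein of microtubules, varied least of the members that passed the filter. The VCaP-T libraries held 184, 177 and 165 counts, those of VCaP-CT 252, 216 and 252, and those of VCaP-CT-ER 233, 266 and 209. Libraries of VCaP-CT-BR held 172, 144 and 165 counts, and the 3 of VCaP-CT-BR-ER 175, 158 and 185. The highest levels were those of VCaP-CT, at 6.93 ± 0.734 CPM, and those of the other sublines ran from 4.11 ± 0.346 CPM in VCaP-CT-BR up to 5.19 ± 0.366 CPM in VCaP-CT-ER (SD, n = 3). No library of VCaP-CT overlapped with another subline.

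The step to VCaP-CT was a 1.52-fold rise of BEX4 (log2 0.60 ± 0.11, edgeR adjusted p = 9.8e-05), opposite in direction to BEX2. From VCaP-CT it fell under both antiandrogens, 1.33-fold to VCaP-CT-ER (log2 -0.42 ± 0.11, edgeR adjusted p = 0.0026) and 1.69-fold to VCaP-CT-BR (log2 -0.75 ± 0.12, edgeR adjusted p = 1.3e-05). At the second ENZ step the log2 difference was 0.12 (-0.13 to 0.37, edgeR adjusted p = 0.45). The ENZ steps differed by 0.54 ± 0.16 on the log2 scale (edgeR adjusted p = 0.0095).

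BEX5, whose coding sequence is closest to that of BEX3, was not detected beyond 1 count. A single BEX5 count was found in 1 VCaP-T and 1 VCaP-CT-ER library, and the other 13 libraries held 0 counts. It did not pass the filter, and its level in each library was at or under the floor of 3 counts.

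Counted over the tested members, BEX2, BEX3 and BEX4 all passed the test at ADT, BEX3 and BEX4 higher and BEX2 lower, in a comparison that called 65.3% of all 19621 genes tested (33.1% higher and 32.2% lower). From VCaP-CT to VCaP-CT-ER the 3 also passed, BEX2 and BEX3 higher and BEX4 lower, where 60.9% of all genes did (29.6% higher and 31.2% lower). Under bicalutamide BEX3 and BEX4 passed, both lower, where 53.2% of all genes did (26.1% higher and 27.0% lower). At the second ENZ step BEX3 alone passed, higher, where 42.9% of all genes did (21.2% higher and 21.7% lower). The difference between the ENZ steps called BEX2 and BEX4 and 49.7% of all genes. With most genes called at most steps, these counts do not set the family apart from other genes, and the members did not move as 1 group at any step. The comparisons share libraries: VCaP-CT enters 3 of the 4 steps.

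**Figure D2:**
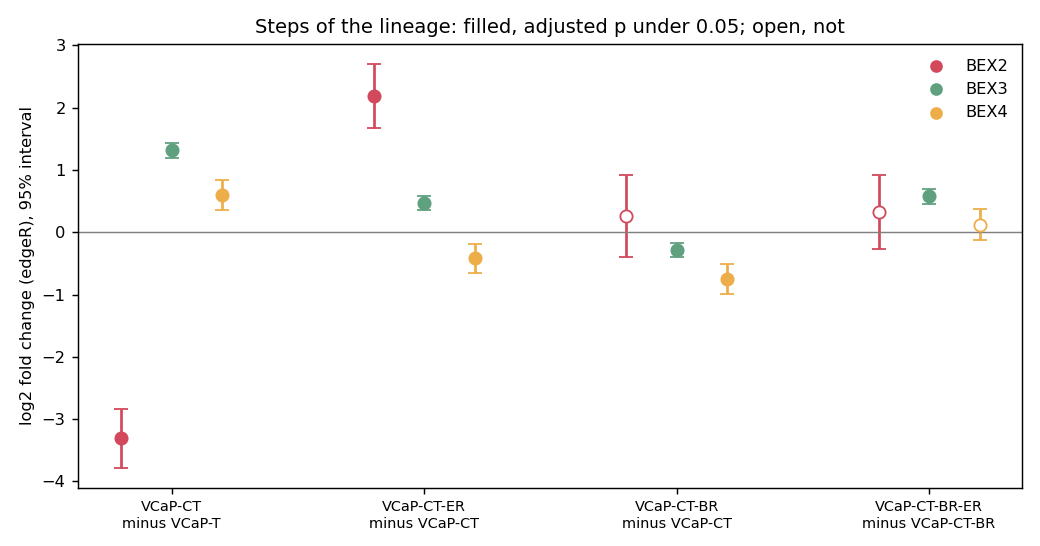
Log2 fold change of BEX2, BEX3 and BEX4 (vertical axis, with the 95% interval of the edgeR fit) at each of the 4 steps of the lineage (horizontal axis), filled where the adjusted p was under 0.05 and open where it was not. At the step from VCaP-T to VCaP-CT, BEX2 lies at -3.31 while BEX3 and BEX4 lie at 1.32 and 0.60, and from VCaP-CT to VCaP-CT-ER BEX4 lies at -0.42 and the other 2 above 0.

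Ordered by mean CPM, the sublines took a different order for each member. For BEX2 the order was VCaP-T, VCaP-CT-ER, VCaP-CT-BR-ER, VCaP-CT-BR and VCaP-CT. VCaP-CT-ER differed from its neighbours on both sides, and the lowest 3 sublines did not differ beyond their spread from neighbour to neighbour. For BEX3 the order was VCaP-CT-ER, VCaP-CT-BR-ER, VCaP-CT, VCaP-CT-BR and VCaP-T, and all 4 neighbouring pairs differed, the closest by 0.18 ± 0.05 on the log2 scale (edgeR adjusted p = 0.0086). For BEX4 VCaP-CT came first and differed from VCaP-CT-ER, and none of the other 3 neighbouring pairs, down through VCaP-T and VCaP-CT-BR-ER to VCaP-CT-BR, passed the test. In all, 7 of 12 neighbouring pairs differed. Besides the steps of the lineage, these pairs used the comparisons of VCaP-T with VCaP-CT-ER, which called 69% of all genes, with VCaP-CT-BR (71.2%) and with VCaP-CT-BR-ER (70.2%), and those of VCaP-CT-BR-ER with VCaP-CT (52.5%) and with VCaP-CT-ER (45.9%). BEX1, as a description, ran VCaP-CT-ER, VCaP-T, VCaP-CT-BR-ER, VCaP-CT and VCaP-CT-BR, and its last 2 sublines were both under the floor.

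Levels of different genes were compared per length, as CPM per kb of exon (FPKM). The summed FPKM of the family was 34.7 for VCaP-T, 48.1 for VCaP-CT, 89.5 for VCaP-CT-ER, 38.5 for VCaP-CT-BR and 56.1 for VCaP-CT-BR-ER. BEX3 made up 49.0% of this sum in VCaP-T, 66.0% of it in VCaP-CT-ER, 88.3% at VCaP-CT, 90.7% after bicalutamide and 92.7% after bicalutamide and ENZ. BEX1 gave 29.5% in VCaP-T, 27.6% of the VCaP-CT-ER sum and at most 0.211% elsewhere. BEX2 gave 11.5% in VCaP-T and 0.823% to 2.06% in the later sublines, and BEX4 between 4.37% and 10.9%. The family was thus a mixture of 4 transcripts in VCaP-T and mostly BEX3 in the sublines without BEX1.

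**Figure D3:**
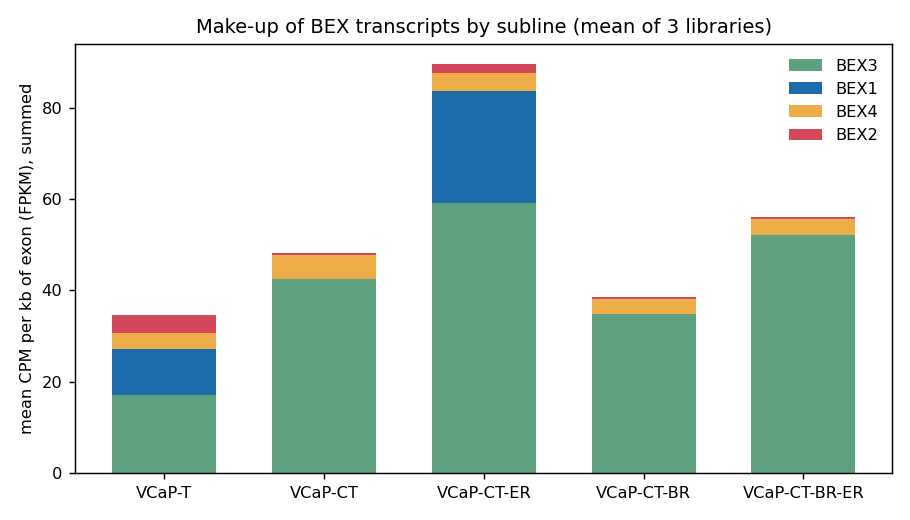
Summed FPKM of the BEX genes (vertical axis from 0, means of 3 libraries) in each subline, split by member. BEX3 is the largest share of each bar, and BEX1 is visible only in VCaP-T and VCaP-CT-ER, at 29.5% and 27.6% of the sum.

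Neurotrophin signalling and reported BEX partners were read from a list of 23 genes, of which 14 were tested. Of the 4 ligands only NTF3 (neurotrophin 3) was tested. Of the 5 receptors, NTRK2 and SORT1 were tested. NGFR itself, the receptor that BEX1 and BEX3 bind, had between 0 and 9 counts in any library, with its highest mean, 0.151 ± 0.0639 CPM, in VCaP-CT-ER (SD, n = 3). NTRK3 had at most 4 counts. SORT1 (sortilin), the coreceptor of NGFR for proneurotrophins, was well expressed in each subline, at 63.5 ± 3.49 CPM in VCaP-CT-ER to 92.8 ± 3.27 CPM in VCaP-T (SD, n = 3). Hence BEX3 RNA was abundant where NGFR RNA was close to the floor.

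NTRK2 (the receptor TrkB) had 0 counts in each VCaP-T library and 4, 9 and 11 in VCaP-CT, at least 2.91-fold higher against the floor per library. It rose again under bicalutamide, to 27, 20 and 34 counts (log2 1.57 ± 0.38, edgeR adjusted p = 0.0017), and fell at the second ENZ step, to 8, 7 and 2 (log2 -2.21 ± 0.40, edgeR adjusted p = 0.00017). NTF3 fell under bicalutamide, from 16, 28 and 22 counts to 2, 3 and 5 (log2 -2.85 ± 0.39, edgeR adjusted p = 3.3e-06). Both genes stayed under 1 CPM on average in each subline.

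Adaptors and effectors made up the rest of the list, 14 genes with 11 tested. RIPK2, a kinase reported to join NGFR, rose at ADT (log2 0.93 ± 0.06, edgeR adjusted p = 3.5e-11) and at both ENZ steps, by 0.51 ± 0.06 and 0.80 ± 0.06 on the log2 scale. It also rose under bicalutamide, by 0.38 ± 0.06, where BEX3 fell. Its mean level went from 22.1 ± 0.348 CPM in VCaP-T to 96.2 ± 3.39 CPM in VCaP-CT-BR-ER (SD, n = 3). CALM2, a calmodulin gene, fell at ADT by 1.24 on the log2 scale (edgeR adjusted p = 4.3e-13) and rose at the step to VCaP-CT-ER by 0.28 ± 0.06. MAGED1, a partner of NGFR, rose at ADT (0.45 ± 0.05) and at the second ENZ step (0.49 ± 0.05). It fell at the step to VCaP-CT-ER (-0.58 ± 0.05) and under bicalutamide (-0.61 ± 0.05). RELA, a subunit of NF-kB, fell at both ENZ steps, by 0.71 and 0.43 on the log2 scale, and also under bicalutamide (-0.31). LDB1, which joins LMO2 complexes, rose at ADT (0.42) and fell at the step to VCaP-CT-ER by 0.61 and under bicalutamide (-0.47). LMO2, the partner of BEX2, had 0 to 14 counts in any library. YWHAE, a 14-3-3 gene that most cells express strongly, was listed at 0 to 10 counts, and its values were not used.

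Over the 14 tested genes, 6 were higher and 5 lower in VCaP-CT than in VCaP-T, where 33.1% and 32.2% of all genes were. The median log2 fold change was 0.06 against 0.03 over all genes tested. From VCaP-CT to VCaP-CT-ER 5 were higher and 4 lower (29.6% and 31.2% of all genes). Under bicalutamide it was also 5 and 4 (26.1% and 27.0%), and at the second ENZ step 3 and 3 (21.2% and 21.7%). The medians were -0.09, 0.07 and 0.03, against -0.02, -0.02 and 0.003 over all genes. The list moved in both directions at every step, as did all genes tested. With NTRK2 set at its bound, the median at ADT was again 0.06.

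The TCEAL genes, sister family of the BEX genes and named for their likeness to a transcription elongation factor, gave 4 tested genes of 9. The other 5, TCEAL2, TCEAL5, TCEAL6, TCEAL7 and TCEAL9, had at most 1 count in any library. At ADT 3 of the 4 rose and none fell, where 33.1% of all genes rose and 32.2% fell, and the median log2 fold change was 0.57 against 0.03 over all genes. TCEAL1 rose from 8.44 ± 1.07 to 15.9 ± 2.67 CPM (SD, n = 3, log2 0.92 ± 0.11, edgeR adjusted p = 2.3e-07), and TCEAL8 from 12.9 ± 1.13 to 21.2 ± 1.18 CPM (log2 0.72 ± 0.09, edgeR adjusted p = 3.2e-07). At the second ENZ step TCEAL4 and TCEAL3 rose, by 0.27 and 0.42 on the log2 scale, and TCEAL8 and TCEAL1 fell by 0.40 and 0.36. Of all genes 21.2% rose and 21.7% fell at that step. The step to VCaP-CT-ER called TCEAL3 alone, higher (0.44 ± 0.17, edgeR adjusted p = 0.031), where 60.9% of all genes were called. The bicalutamide step called TCEAL1 alone, higher (0.31 ± 0.10, edgeR adjusted p = 0.014), where 53.2% were. TCEAL1 and TCEAL3 overlap on the same strand, so a read from a shared stretch cannot be placed with 1 of them.

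The ARMCX and GPRASP genes form a further family of the same stretch of the X chromosome, with armadillo repeats, and 8 of 9 were tested. ARMCX5, GPRASP1 and GPRASP2 each overlap the gene ARMCX5-GPRASP2 on the same strand, with the same limit on shared reads. At ADT 4 rose and none fell (33.1% and 32.2% of all genes), with a median log2 fold change of 0.27 against 0.03 over all genes. At the second ENZ step 5 rose and 1 fell (21.2% and 21.7% of all genes), with a median of 0.28. From VCaP-CT to VCaP-CT-ER 2 rose and 2 fell (29.6% and 31.2% of all genes, list median -0.04), and under bicalutamide 1 rose and 2 fell (26.1% and 27.0% of all genes, list median -0.06). ARMCX2 was at or near 0 in the 2 sublines that expressed BEX1. It had 0 counts in the 3 VCaP-T libraries, while those of VCaP-CT held 11, 24 and 19 and those of VCaP-CT-ER 0, 0 and 2. Libraries of VCaP-CT-BR held 22, 27 and 30 counts, and the 3 of VCaP-CT-BR-ER 26, 22 and 17. ARMCX2 in VCaP-CT was thus at least 6.59-fold higher than in VCaP-T, against the floor per library, and 35.4 times the level of VCaP-CT-ER (exact 95% interval 9.34 to 300). ARMCX4 was also low in VCaP-CT-ER, with 2, 1 and 1 counts against 20, 23 and 20 in VCaP-CT, but held 14, 31 and 29 counts in VCaP-T.

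Among all genes within 1 Mb of a BEX gene, 111 in number and including all TCEAL, ARMCX and GPRASP genes of the lists above, 32 were tested, so the counts repeat those of both families. At ADT 19 of these rose and 1 fell, with a median log2 fold change of 0.42, where 33.1% of all genes rose and 32.2% fell. The single neighbour that fell was DRP2, with 10, 29 and 17 counts in VCaP-T and 4, 4 and 9 in VCaP-CT (log2 -1.56 ± 0.48, edgeR adjusted p = 0.0070). Besides ARMCX2, ZMAT1, a zinc finger gene, rose most, from 0.290 ± 0.173 to 2.68 ± 0.321 CPM (SD, n = 3, log2 3.21 ± 0.28, edgeR adjusted p = 1.6e-09). BEX1 and BEX2 were therefore low after ADT in a stretch where more of the tested genes rose than fell. From VCaP-CT to VCaP-CT-ER 12 rose and 3 fell, where 29.6% and 31.2% of all genes did (list median 0.18). Under bicalutamide 10 rose and 3 fell, where 26.1% and 27.0% did (0.24), and at the second ENZ step 10 rose and 4 fell, where 21.2% and 21.7% did (0.13). TMSB15B rose most at the step to VCaP-CT-ER, but from 2, 2 and 5 to only 18, 16 and 15 counts.

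**Figure D4:**
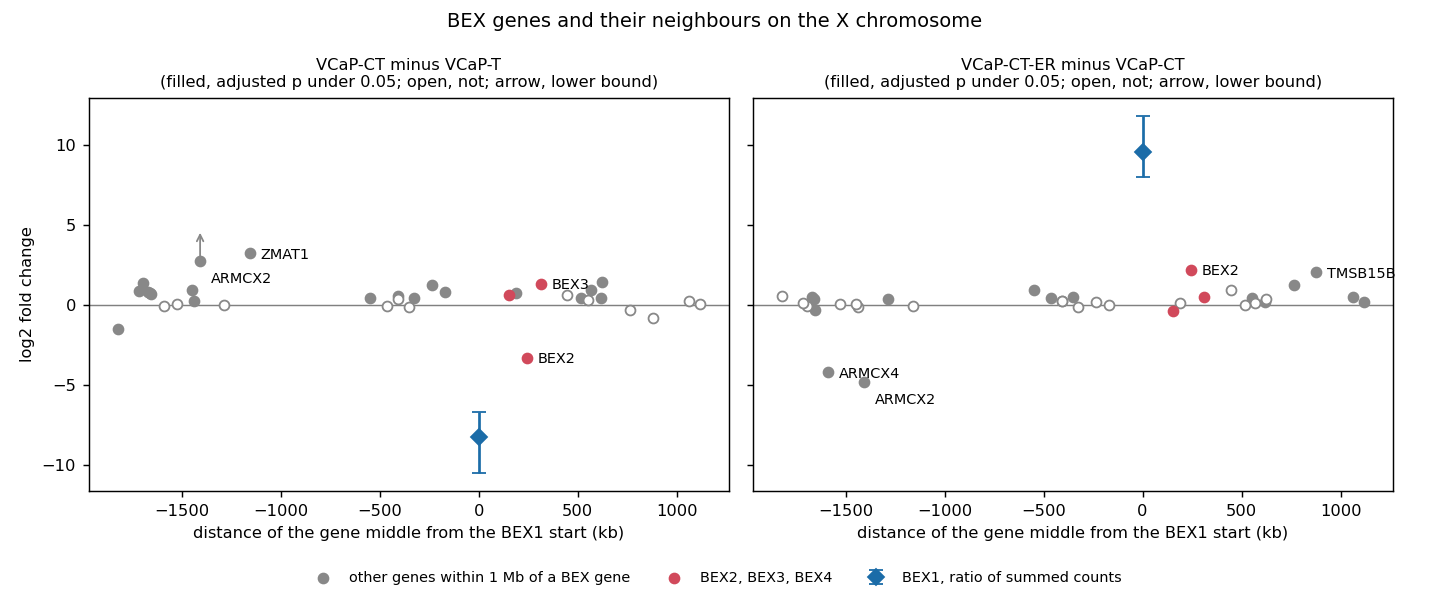
Log2 fold change (vertical axes) of the tested genes around the BEX genes against the distance of the gene's middle from the start of BEX1 (horizontal axes, kb), at the steps to VCaP-CT and to VCaP-CT-ER. Circles are edgeR values, filled where the adjusted p was under 0.05, the arrow marks ARMCX2 at its bound of 6.59-fold, and the diamond is the ratio of summed BEX1 counts (305 and 739) with its exact 95% interval. At the first step BEX1 and BEX2 lie below 0 while BEX3 and most neighbours lie above it.

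Genes whose pattern was most like that of a member were found by the root mean square difference of log2 CPM over the 15 libraries, each gene centred on its own mean. Among the genes searched, the closest to BEX1 was KLK3, the gene of prostate-specific antigen, at 1.53. KLK3 stood at 3560 ± 48.9 CPM in VCaP-T, with 33.2 ± 1.21 CPM measured for VCaP-CT and 521 ± 18.8 CPM for VCaP-CT-ER (SD, n = 3). VCaP-CT-BR had 14.1 ± 0.538 CPM of KLK3, while VCaP-CT-BR-ER had 40.0 ± 1.94 CPM (SD, n = 3). FAR2P2, a pseudogene, followed at 1.80, ASB9 at 1.83, TMEFF2 at 1.86 and SPINK1 at 1.95. Like BEX1, ASB9, TMEFF2, SPINK1 and FAR2P2 had their highest mean level in VCaP-CT-ER, whereas KLK3 was highest in VCaP-T. BEX2, left out of this search as a member, lay at 2.55 from BEX1.

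The other members had closer matches, at counts where the prior count weighed less than on BEX1. SH3BGRL2 (0.37), KRT19 (0.41) and SCIN (0.41) were nearest to BEX2, PHC1P1, C1R and SHROOM2 (0.14 to 0.15) to BEX3, and ERGIC3, NIPSNAP1 and ZNF691 (0.15 to 0.16) to BEX4. KRT19, a keratin of simple epithelia, went from 139 ± 2.42 CPM in VCaP-T down to 13.4 ± 1.06 CPM in VCaP-CT and back up to 72.5 ± 4.10 CPM in VCaP-CT-ER (SD, n = 3). No gene was shared between these lists, which are short, so this says little about how alike the members were. The libraries of a subline are replicates, so these distances rest on 5 groups, and genes with pseudogene copies such as FAR2P2 and PHC1P1 can share reads with their relatives.

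**Figure D5:**
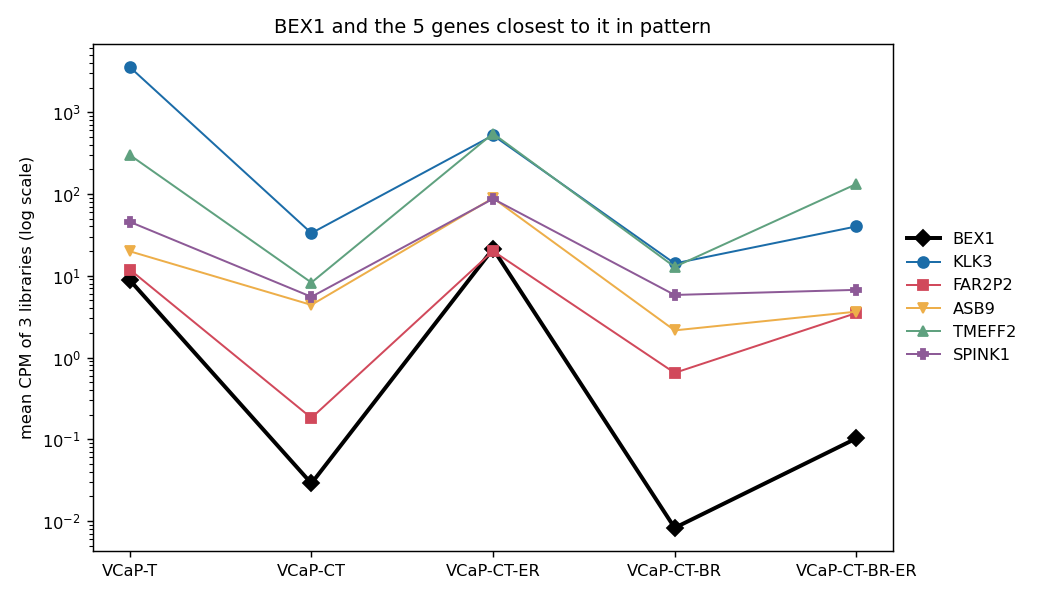
Mean CPM of 3 libraries (vertical axis, log scale) in each subline for BEX1 and the 5 genes closest to it in pattern. All 6 are lower in VCaP-CT than in VCaP-T and rise again in VCaP-CT-ER, and BEX1 reaches the lowest level, 0.00826 CPM in VCaP-CT-BR.

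Because BEX genes are known from neural cells, markers of other cell types were set beside them. The summed level of 8 neuroendocrine markers was 302 to 315 CPM in the VCaP-T libraries and 28.4 to 32.8 CPM in VCaP-CT, and so fell with BEX1 and BEX2 at ADT. In VCaP-CT-ER, where BEX1 was highest, the sum was 23.5 to 25.7 CPM, and the 2 bicalutamide sublines had 21.0 to 22.1 CPM (VCaP-CT-BR) and 11.7 to 13.1 CPM (VCaP-CT-BR-ER). CHGB carried most of the sum in VCaP-T, at 159 ± 6.32 CPM (SD, n = 3), CHGA had at most 1 count and NEUROD1 had none. SCG2 (secretogranin II) had its highest mean level in VCaP-CT-ER, 12.3 ± 1.42 CPM, against 0.200 ± 0.0697 CPM in VCaP-CT (SD, n = 3). The sum of the 8 was lower in VCaP-CT-ER than in VCaP-CT all the same, so the other markers together went the other way. The part of these cells in the BEX levels was not tested.

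The summed level of 5 fibroblast markers was 185 to 217 CPM in VCaP-CT-ER, 217 to 250 CPM in the VCaP-CT-BR-ER libraries, through LUM, against 7.62 to 25.4 CPM in the other sublines, and so stood with the higher BEX3 levels of the 2 ENZ-resistant sublines. Of the other fibroblast markers, COL1A2 had 0 counts in all libraries and DCN at most 22. COL1A1 had 16 to 309 counts and was highest in VCaP-T, and PDGFRB had 16 to 128 and was highest in VCaP-CT. The part of such cells in the BEX levels was not tested. The 3 basal markers summed to at most 11.1 CPM, in VCaP-T, and the 3 endothelial ones to at most 16.3 CPM, in VCaP-T. Of the endothelial markers VWF reached 562 counts and PECAM1 128, both in VCaP-T, and CDH5 had no more than 1.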

How the data were processed

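Bulk RNA-seq of 5 VCaP sublines with 3 libraries each was analysed. The authors aligned reads to GRCh38 with STAR 2.5.4b and deposited raw fragment counts per gene, made with featureCounts 1.6.2 on exons of GENCODE 28, for paired reads and without regard to strand. Multi-mapped reads were not counted by these settings. Symbols came from GENCODE 44 by Ensembl identifier (57799 of 58381 matched). Groups and replicate numbers came from the sample labels. The members, gene lists and tests were chosen with earlier results of these data known.

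Counts were tested with edgeR 4.0.16 in R 4.3.3: filterByExpr with a minimum count of 10 (19621 genes), TMM, 1 term per subline over the 15 libraries, quasi-likelihood F tests, two-sided, Benjamini-Hochberg adjustment over all genes of a comparison and a threshold of 0.05. CPM use TMM library sizes and FPKM exonic length. Log2 CPM for patterns used a prior count of 2 and genes with an average of at least 1. BEX1 ratios are of summed counts with exact binomial intervals. The fit was tested on simulated data. Alternatives were DESeq2 1.42.0, other scalings and filters, the replicate block, fits of the compared sublines and each library left out. Named genes were the 5 members, for each list and step up to 2 that rose and 2 that fell most, and the closest 5 genes for BEX1 and 3 for the others, and the text names fewer. Receptors, markers and untested genes near 0 were named besides, after their values were seen. Promoter windows came from RefSeq, other sequence from GRCh38. Figures were drawn with matplotlib 3.10.9 in Python 3.11.15. Some genes of the lists and some motifs are not reported here by name.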

Additional observations from a re-analysis of the deposited data

Results flagged for a closer look

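The response of 2 of the 3 tested members to ENZ differed between the VCaP-CT and the VCaP-CT-BR background by a test of the difference itself. That test called 49.7% of all 19621 genes tested, so these calls do not set the family apart. For BEX2 the ENZ step from VCaP-CT-BR was smaller than that from VCaP-CT by 1.86 on the log2 scale (difference -1.86, edgeR adjusted p = 0.00045), with counts of 101, 93 and 99 in VCaP-CT-ER and 22, 32 and 28 in VCaP-CT-BR-ER. For BEX4 the difference was 0.54 (edgeR adjusted p = 0.0095), from a fall in VCaP-CT-ER and no call in VCaP-CT-BR-ER. Both steps rest on 3 libraries of 1 derivation each.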

How the results depend on the processing

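The BEX2, BEX3 and BEX4 fits under the alternatives kept direction and side of the threshold in 309 of 310 cases. The exception was BEX2 at the bicalutamide step, -0.059 in place of 0.26 without VCaP-CT replicate 1 and -0.059 to 0.48 over all libraries left out in turn (never called). Many of these fits left out a library outside the compared sublines, which could move the estimate only through scaling and the shared estimate of spread. With at least 10 counts required in every library, BEX2 was no longer tested, the difference between the ENZ steps called 1 member in place of 2, ADT and the first ENZ step each called 2 in place of 3, and 5 neighbouring pairs in the order of sublines differed in place of 7. BEX1 in VCaP-CT-ER was 21.8 CPM with library totals without TMM. Leaving out each library in turn left the counts of called members at 3 for ADT, 3 for the first ENZ step, 2 for bicalutamide and 1 for the second ENZ step, the difference between the ENZ steps at 2, and counts of all genes between 7361 and 13059. Same-numbered libraries deviated together in some pairs and in opposite ways in others (correlations of -0.51 to 0.53 over 12720 genes). Libraries of different numbers were not compared in this way. The numbers were not taken to pair the libraries, and with a replicate block the members called were again 3, 3, 2 and 1. The depth limits BEX1 outside VCaP-T and VCaP-CT-ER, and BEX5 everywhere, where differences of a few counts were not detectable.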
